A study of Mus musculus with 8 samples.

Results

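Genes that sense sterols and drive their efflux were followed in OT-I CD8+ T cells, mouse T cells with a transgenic receptor for an ovalbumin peptide. They are Srebf1, Srebf2, Scap, Insig1, Insig2, Nr1h2, Abca1, Abcg1 and Mylip. These 9 genes were taken by name from the 47069 gene IDs of the deposited table, and each name matched 1 row. Lymph node cells labelled WT were stimulated for 24 h with 10 nM OVA-T4 (SIITFEKL), an altered ovalbumin peptide of lower affinity for the receptor. OVA-T4 + TGFβ (5 ng/ml recombinant TGFβ, 4 libraries) was compared with OVA-T4 alone (4 libraries), which the labels call biological replicates. The study's methods name age- and sex-matched OT-I and OT-I Rag1-/- mice, without saying which of them gave these samples. They describe no sort of the cells, but report that preparations from OT-I Rag1-/- lymph nodes were typically mostly CD8 T cells.

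SREBP transcription factors, encoded by Srebf1 and Srebf2, are made as precursors in the membrane of the endoplasmic reticulum, where Scap binds them and Insig proteins retain Scap while sterols are plentiful. When sterols fall, Scap carries the precursors to the Golgi, where they are cut to release factors that turn on sterol and fatty acid synthesis. Liver X receptors (LXR, here Nr1h2) bind oxysterols and turn on the efflux transporters Abca1 and Abcg1 and the ubiquitin ligase gene Mylip, and in activated T cells SREBP activity is known to rise while LXR activity falls.

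Values are FPKM, reads scaled to gene length and to the library total. They could be solved as whole reads, with library totals of 35586261 to 40040249 reads in OVA-T4 + TGFβ and 35839293 to 41597929 reads in OVA-T4. The test was limma on log2(FPKM + 0.5) for the 12879 genes that averaged 0.5 FPKM or more, and p-values were adjusted over all of these genes (Benjamini-Hochberg). All log2 fold changes are on this scale and are understated for weakly expressed genes. Libraries with the same replicate number in both groups were taken as pairs, from the data and not from the labels, so a fit with the number as a block is given where it changes a call. Tgfbr1, which encodes a TGFβ receptor, was at 88.3 to 104 FPKM in OVA-T4 + TGFβ, against 11.4 to 16.2 FPKM in OVA-T4. The CD8 T cell markers were all present, at a sum of 3529 to 3717 FPKM in OVA-T4 + TGFβ and 2944 to 3267 FPKM in OVA-T4. Of 10 B cell markers 4 were tested and all 4 were higher with TGFβ, and the list summed to 264 to 283 FPKM in OVA-T4 + TGFβ and 209 to 242 FPKM in OVA-T4, while the defining marker Ms4a1 was listed at 0 throughout.

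Insig2, Nr1h2 and Scap were higher with TGFβ, by log2 fold changes of 0.50, 0.25 and 0.15, and no member was lower (limma, adjusted p under 0.05). Insig1 had the lowest fold change, at -0.36, and Abcg1 the highest, at 0.68, and neither passed the test. At an unadjusted p under 0.05 from limma, 1 more member was higher (Srebf1) and 1 was lower (Insig1). Fitted by limma voom to the solved reads, both passed (adjusted p = 0.0491 and 0.0495). Of the 8 members tested, 3 were higher and 5 did not pass. Among all 12879 genes tested 51.0% changed, 30.7% higher and 20.2% lower, so the 3 of 8 are near the background. The members' median log2 fold change was 0.20, and that of all genes tested was 0.077. In 3 of the 9 members the groups did not overlap, all 3 higher, compared with 48.1% of all genes tested (29.1% higher and 18.9% lower). In 6 members all 4 numbered pairs moved the same way, as in 68.6% of all genes tested. With the block, 5 members were higher (Insig2, Nr1h2, Scap, Srebf1 and Abcg1), Insig1 was lower and 2 did not pass, on a background of 60.8% of genes that changed, 35.5% higher and 25.4% lower. The plot of FPKM by library shows the members' spread beside these differences.

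**Figure D1:**
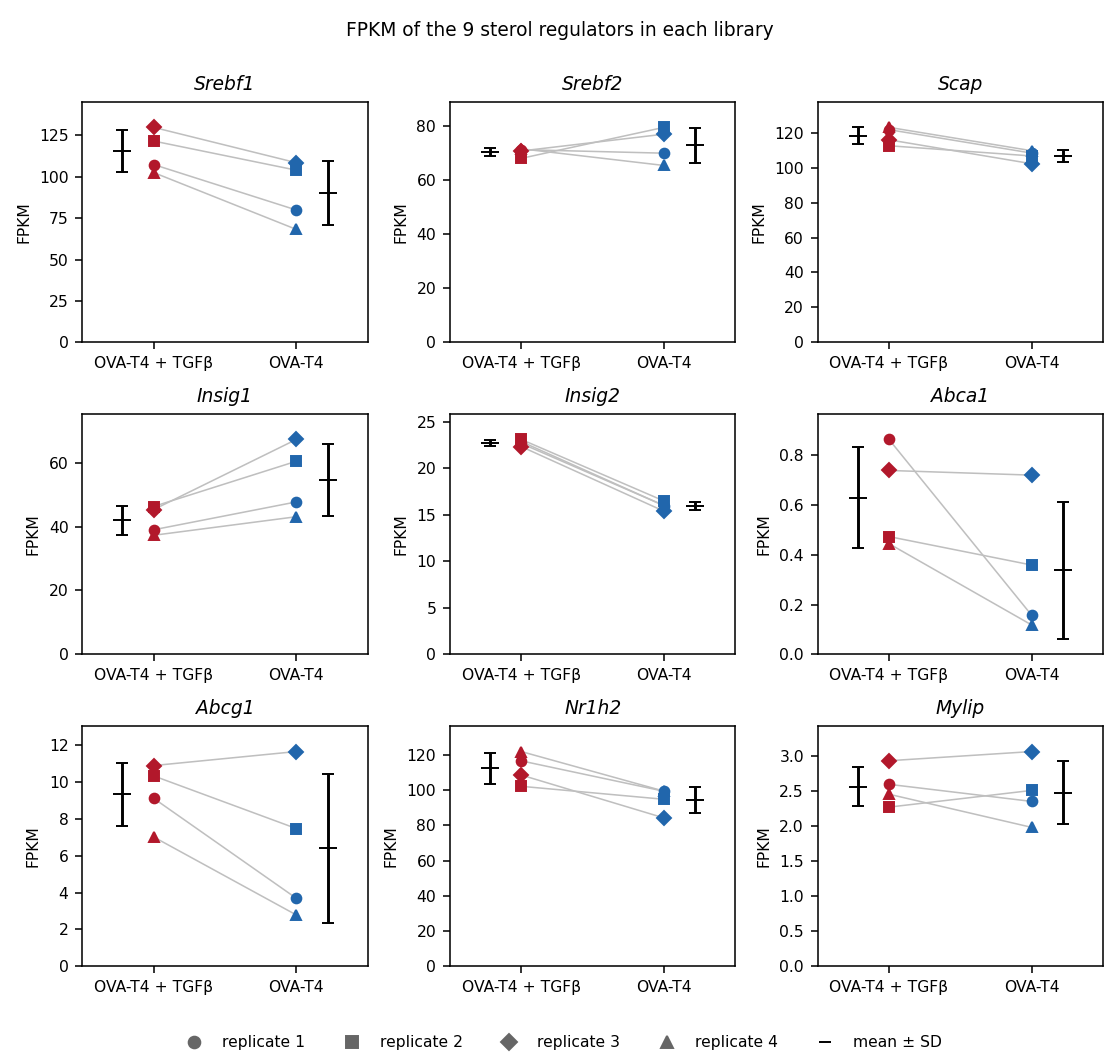
FPKM of the 9 members in each library, with a panel for each gene, OVA-T4 + TGFβ (red) left of OVA-T4 (blue), grey lines between libraries of the same replicate number, and black bars for the mean ± SD (n = 4 each). Insig2, Scap and Nr1h2 have groups that do not overlap, while Abca1 and Abcg1 in OVA-T4 spread 6.13-fold and 4.18-fold from the lowest to the highest library.

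Insig2 encodes 1 of the paired membrane proteins that hold back Scap, and it was higher with TGFβ. It had 22.6, 23.1, 22.3 and 22.8 FPKM in OVA-T4 + TGFβ replicates 1 to 4, against 16.0, 16.5, 15.4 and 16.0 FPKM in OVA-T4 replicates 1 to 4. Every library with TGFβ was above every library without it, and the within-group spread was low (log2 SD of 0.020 in OVA-T4 + TGFβ and 0.040 in OVA-T4). Only 1.08% of the genes tested had a lower SD in OVA-T4 + TGFβ, and 4.70% in OVA-T4. Whether this spread lies below the counting noise of 462 to 710 reads per library was not tested. The log2 fold change was 0.50 (standard error 0.048, adjusted p = 4.2e-05 from limma). Fitted to the solved reads, it was 0.51 with a larger standard error of 0.069 (adjusted p = 0.000191 from limma voom). It passed the test in all 19 alternative settings, with fold changes of 0.40 to 0.54. Same-numbered libraries gave ratios of 1.42, 1.40, 1.45 and 1.43. The gene lies on the reverse strand at chr1:121304353-121332589 of GRCm38, and 462 to 710 reads stood behind each value.

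Insig1, the paralog of Insig2 and itself a classical SREBP target, had lower values with TGFβ in every same-numbered pair. It had 39.0, 46.3, 45.3 and 37.3 FPKM in OVA-T4 + TGFβ, against 47.7, 60.5, 67.3 and 43.1 FPKM in OVA-T4. Replicate 4 of OVA-T4 lay inside the range of the TGFβ libraries, so the groups overlapped. The log2 fold change of -0.36 had a standard error of 0.140 and adjusted p = 0.0567 from limma without the block. With the block the standard error was 0.061 and adjusted p = 0.00183, and 28.4% of all genes tested were likewise lower in all 4 numbered pairs. Without OVA-T4 replicate 4 it passed in the unblocked fit, at -0.47 (adjusted p = 0.0145 from limma). Insig1 lies on the forward strand at chr5:28071363-28078662, with 2307 to 4822 reads per library.

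The bases before the start sites of both Insig genes are shown because the pair moved apart. They are the 250 bases before a RefSeq start site on GRCm38.p6, at chr5:28071162-28071411 (forward strand) for Insig1 and chr1:121332590-121332839 (reverse strand) for the most upstream of 3 Insig2 windows. Capitals mark an E-box, CACGTG.
Insig1: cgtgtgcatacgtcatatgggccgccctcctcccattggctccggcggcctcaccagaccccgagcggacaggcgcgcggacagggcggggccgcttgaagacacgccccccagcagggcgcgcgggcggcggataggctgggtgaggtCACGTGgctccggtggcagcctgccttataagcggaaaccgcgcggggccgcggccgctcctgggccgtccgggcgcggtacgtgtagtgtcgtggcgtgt
Insig2: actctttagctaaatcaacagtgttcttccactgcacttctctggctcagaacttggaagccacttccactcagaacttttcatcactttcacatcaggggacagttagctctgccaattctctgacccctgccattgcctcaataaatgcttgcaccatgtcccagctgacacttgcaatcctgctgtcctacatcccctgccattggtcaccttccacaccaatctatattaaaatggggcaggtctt
G and C made up 72.8% of the Insig1 bases and 47.2% of the Insig2 bases shown. This share was not measured in the other Insig2 windows, so the contrast holds only for the bases shown. RefSeq windows of 250 bases before to 50 after a start site were matched for 8 members (13 windows). Searched on both strands, the E-box was in windows of Insig1 (at -101), Abca1 (at -147) and Scap, and in 7.15% of all 32851 windows. The SREBP element, TCACNCCAC, was in 1.24% of windows and the LXR repeat, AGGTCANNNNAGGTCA, in 0.0152%, and neither was in a window of a member. The SMAD box CAGACA was in 1 window of Insig2 and 1 of Srebf1, and in 21.0% of all windows. A match describes letters only and is not a site. Elements that differ from these exact letters are missed, so the lack of a match does not show that a window lacks an element.

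The balance of the Insig pair differed between the groups. The ratio of Insig1 to Insig2 FPKM was 1.72, 2.01, 2.03 and 1.63 in OVA-T4 + TGFβ, against 2.99, 3.67, 4.38 and 2.70 in OVA-T4. All TGFβ libraries were below all libraries without it. On the log2 scale the ratio was 0.87 ± 0.16 (SD, n = 4) in OVA-T4 + TGFβ and 1.72 ± 0.31 (SD, n = 4) in OVA-T4, a difference of -0.86 (two-sided p = 0.0286 by exact permutation, adjusted p = 0.0429 over 3 ratios). No smaller p can be reached with 4 against 4 libraries. With the numbers as pairs it did not pass (p = 0.125 by exact permutation, the smallest that 4 pairs allow), nor without 1 library in 6 of 8 cases (adjusted p = 0.0857 by exact permutation). In those 6 cases the unadjusted p was 0.0286 by exact permutation, the smallest that 4 against 3 libraries allow. A factor that scales a whole library cancels in such a ratio, but for the pseudocount.

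**Figure D2:**
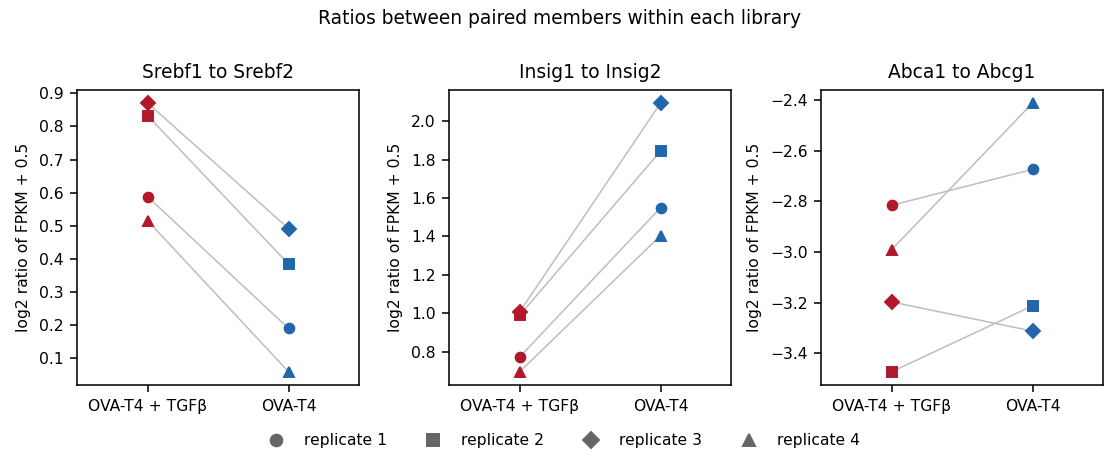
Log2 ratios of FPKM + 0.5 between members of a pair within each library, OVA-T4 + TGFβ (red) left of OVA-T4 (blue), with grey lines between libraries of the same replicate number. The groups lie apart for Srebf1 to Srebf2 (difference 0.42) and Insig1 to Insig2 (difference -0.86), and overlap for Abca1 to Abcg1.

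Scap, the escort that carries SREBP precursors to the Golgi, was slightly higher with TGFβ. It had 122, 113, 116 and 123 FPKM in OVA-T4 + TGFβ, against 108, 107, 102 and 110 FPKM in OVA-T4. The groups did not overlap, though the lowest TGFβ library and the highest library without it were close. Its log2 fold change was 0.15 (standard error 0.046, adjusted p = 0.0232 from limma). Scaled by median of ratios it was 0.045 and did not pass (adjusted p = 0.414 from limma). Without OVA-T4 + TGFβ replicates 1 or 4 or OVA-T4 replicate 3 it was 0.13 and likewise did not pass (adjusted p = 0.0687, 0.0615 and 0.0618 from limma). Scap lies at chr9:110333288-110384950 on the forward strand and shares 985 exon bases with 5830462I19Rik on the opposite strand, which was at a mean of 0.208 FPKM.

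Srebf1 encodes SREBP1, whose targets are mainly genes of fatty acid synthesis, and it had higher values with TGFβ in every same-numbered pair. It had 107, 122, 130 and 103 FPKM in OVA-T4 + TGFβ, against 79.9, 104, 109 and 68.2 FPKM in OVA-T4. The groups overlapped, since replicates 2 and 3 of OVA-T4 were as high as the lower TGFβ libraries. The log2 fold change of 0.37 had a standard error of 0.147 and adjusted p = 0.0600 from limma, and with the block a standard error of 0.062 and adjusted p = 0.00166. Higher values in all 4 numbered pairs were found in 40.2% of all genes tested. Without OVA-T4 replicate 2 it passed in the unblocked fit, at 0.45 (adjusted p = 0.0448 from limma), and without replicate 3 at 0.47 (adjusted p = 0.0269 from limma). The gene lies on the reverse strand at chr11:60199089-60222581, and shares 109 exon bases with Rai1 on the opposite strand (mean 34.4 FPKM).

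Srebf2 encodes SREBP2, the main activator of cholesterol synthesis genes, and it did not pass the test. It had 71.3, 68.1, 70.8 and 71.6 FPKM in OVA-T4 + TGFβ, against 69.998, 79.6, 77.0 and 65.4 FPKM in OVA-T4. The TGFβ libraries all lay within the range of the others. The log2 fold change was -0.05, with a 95% confidence interval of -0.19 to 0.10 (adjusted p = 0.568 from limma). The gene spans chr15:82147181-82205379 on the forward strand.

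The Srebf1 to Srebf2 ratio was higher with TGFβ. It was 1.51, 1.79, 1.83 and 1.43 in OVA-T4 + TGFβ, against 1.14, 1.31, 1.41 and 1.04 in OVA-T4, with no overlap. The mean log2 ratio was 0.70 ± 0.18 (SD, n = 4) in OVA-T4 + TGFβ and 0.28 ± 0.19 (SD, n = 4) in OVA-T4, a difference of 0.42 (exact permutation test, two-sided, p = 0.0286, adjusted p = 0.0429 over 3 ratios). As with the Insig pair, it did not pass with the numbers as pairs (exact permutation, p = 0.125) or in 6 of the 8 cases without 1 library (adjusted p = 0.0857), with differences of 0.35 to 0.49.

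Nr1h2 encodes LXRβ and was higher with TGFβ. It had 117, 102, 109 and 122 FPKM in OVA-T4 + TGFβ, against 99.3, 94.8, 84.2 and 99.4 FPKM in OVA-T4. All TGFβ libraries were above all others. Its log2 fold change was 0.25 (standard error 0.073, adjusted p = 0.0183 from limma). Scaled by median of ratios it was 0.15 and did not pass (adjusted p = 0.0859 from limma). Without OVA-T4 + TGFβ replicate 1 it was 0.23 and did not pass (adjusted p = 0.0536 from limma). The gene lies on the reverse strand at chr7:44549616-44553951. The gene of LXRα, Nr1h3, was near the lower limit of the test, at 0.698 ± 0.267 FPKM in OVA-T4 + TGFβ and 0.414 ± 0.206 FPKM in OVA-T4 (SD, n = 4 each).

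**Figure D3:**
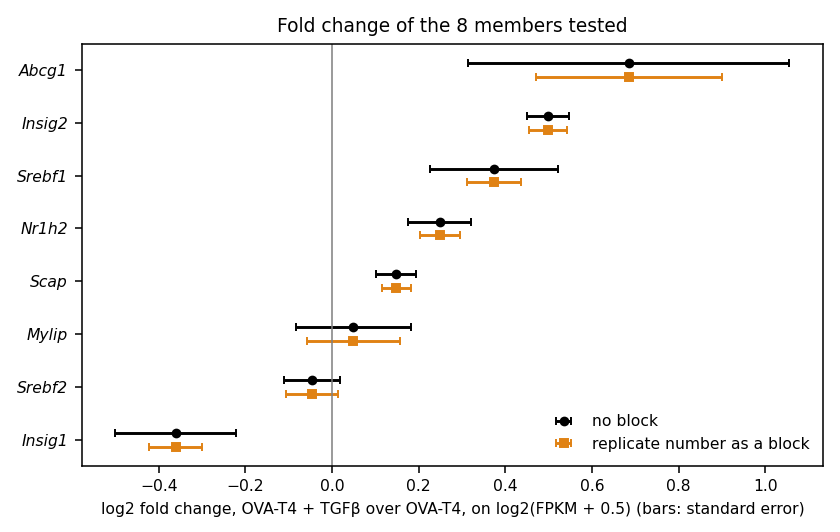
Log2 fold change of OVA-T4 + TGFβ over OVA-T4 on log2(FPKM + 0.5) for the 8 members tested, without (black circles) and with (orange squares) the replicate number as a block, and bars for the standard error. The fold changes are equal in both fits, and the standard error with the block is 0.062 for Srebf1 and 0.061 for Insig1, against 0.147 and 0.140 without it.

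Abcg1, an LXR target that moves sterols out of the cell, had the highest fold change of the members and the widest spread. It had 9.10, 10.3, 10.9 and 7.01 FPKM in OVA-T4 + TGFβ, against 3.69, 7.46, 11.6 and 2.78 FPKM in OVA-T4. Replicate 3 of OVA-T4 was the highest of all libraries, while replicates 1 and 4 were below every TGFβ library. The log2 SD of 0.86 in OVA-T4 was above that of 98.6% of genes tested, whose median was 0.137. The log2 fold change of 0.68 had a standard error of 0.371 and adjusted p = 0.152 from limma. With the block adjusted p was 0.0272, and without OVA-T4 replicate 3 the log2 fold change was 1.02 (adjusted p = 0.0201 from limma). Same-numbered libraries gave ratios of 2.47, 1.38, 0.935 and 2.52, so the third pair went the other way. The gene spans chr17:31057675-31117988 on the forward strand.

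Abca1, which loads cholesterol onto apolipoproteins and is another LXR target, was the least expressed member. It had 0.864, 0.474, 0.740 and 0.445 FPKM in OVA-T4 + TGFβ, against 0.156, 0.359, 0.721 and 0.118 FPKM in OVA-T4. These values rest on 191, 93, 161 and 88 reads in OVA-T4 + TGFβ and 33, 71, 165 and 27 reads in OVA-T4. As with Abcg1, replicate 3 of OVA-T4 was high and replicates 1 and 4 were low. Its mean of 0.484 FPKM was under the filter, so it has no test in the main comparison, and its log2 difference was 0.47. In a fit with no filter, where 27.1% of 23842 genes changed, it did not pass (adjusted p = 0.203 from limma), and without OVA-T4 replicate 3 the log2 fold change was 0.67 (adjusted p = 0.0427 from limma). The Abca1 to Abcg1 ratio overlapped between the groups (log2 difference -0.22, exact permutation test, two-sided, p = 0.429). Abca1 lies on the reverse strand at chr4:53030787-53159895.

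Macrophages express Abca1 and Abcg1 strongly, and macrophage and monocyte transcripts also moved with TGFβ. Of the 15 markers, 6 were tested and 3 were higher (Lyz2, Itgam and C1qb), none was lower, and Mrc1 was listed at 0 throughout. Their summed level was 82.2, 38.4, 24.2 and 66.9 FPKM in OVA-T4 + TGFβ, against 33.8, 24.3, 18.1 and 33.0 FPKM in OVA-T4. Within OVA-T4 the sum was lowest in replicate 3, where Abca1 and Abcg1 were highest. Within OVA-T4 + TGFβ it was highest in replicate 1, where Abca1 was highest, and lowest in replicate 3, where Abcg1 was highest. Dendritic cell markers summed to 37.4 to 58.1 FPKM in OVA-T4 + TGFβ and 18.0 to 35.6 FPKM in OVA-T4. The groups overlapped for the macrophage sum and lay apart for the dendritic cell sum. The part of these cells in the transporter values was not tested. In bulk RNA, fewer cells of a type and less RNA per cell cannot be told apart.

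An intron of Srebf2 holds the gene of miR-33, a microRNA known to repress Abca1 and Abcg1. Its mature strand is shown with its seed, bases 2 to 8, in capitals, beside a stretch from each transporter's 3′ UTR with the match to that seed in capitals. The miRNA is at chr15:82198127-82198147 on the forward strand (RefSeq, GRCm38.p6). The stretches come from the longest annotated 3′ UTR, where the matches shown start at base 140 for Abca1 and base 717 for Abcg1.
miR-33-5p: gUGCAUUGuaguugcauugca
Abca1: gacactattcaatgCAATGCActtcaat
Abcg1: ggactaacgcaacgCAATGCAacgcaat
The match CAATGCA occurred 3 times in the 3′ UTR of Abca1, 2 times in that of Abcg1 and in none of the other 7 members, and 6.99% of 10640 tested genes with a 3′ UTR held it. The miR-33 precursor gene had 4 reads in OVA-T4 + TGFβ replicate 3 and was listed at 0 in the other libraries, so these mRNA libraries give no level for the mature miRNA.

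Mylip encodes a ubiquitin ligase that limits lipoprotein uptake, and this LXR target did not pass the test. It had 2.60, 2.28, 2.94 and 2.46 FPKM in OVA-T4 + TGFβ, against 2.36, 2.52, 3.07 and 1.99 FPKM in OVA-T4. The groups overlapped and the pairs were split, with 2 higher and 2 lower. Its log2 fold change was 0.05, with a 95% confidence interval of -0.25 to 0.35 (adjusted p = 0.778 from limma). Its sign turned with the scaling, at -0.038 after median of ratios and -0.23 after quantile normalization, which also shifted the median of all genes, by -0.094 and -0.11. Mylip lies on the forward strand at chr13:45389742-45412022.

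Several members shared a pattern within OVA-T4. Srebf1, Insig1, Abca1, Abcg1 and Mylip were highest in replicate 3 and lowest in replicate 4 of OVA-T4, as were 11.6% of all genes tested. The highest library was 1.94-fold above the lowest for Abca1 in OVA-T4 + TGFβ, against 6.13-fold in OVA-T4, and 1.55-fold for Abcg1 in OVA-T4 + TGFβ, against 4.18-fold in OVA-T4. For Srebf1, Insig1 and Mylip this span was 1.24-fold to 1.29-fold in OVA-T4 + TGFβ and 1.55-fold to 1.59-fold in OVA-T4. Scap and Insig2 spread by at most 1.09-fold in either group.

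Among the 3 genes whose profile over the 8 libraries was most like that of Insig1 were Cyp51 and Fdft1, both enzymes of cholesterol synthesis and known SREBP2 targets. The search covered 11745 genes that averaged 1 FPKM or more, and the root mean square difference in centred log2 values was 0.064 for Cyp51 and 0.070 for Fdft1. Their log2 fold changes were -0.34 and -0.29, and Cyp51 passed the test (adjusted p = 0.04005 from limma). These likenesses are descriptions over libraries that share depth and treatment. For Abcg1 the nearest genes were at 0.198 for Miip, 0.261 for Idh1 and 0.269 for Gpr55. This distance is not scaled to a gene's spread, which was wider for Abcg1 than for Insig1, so the distances of both cannot be compared.

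**Figure D4:**
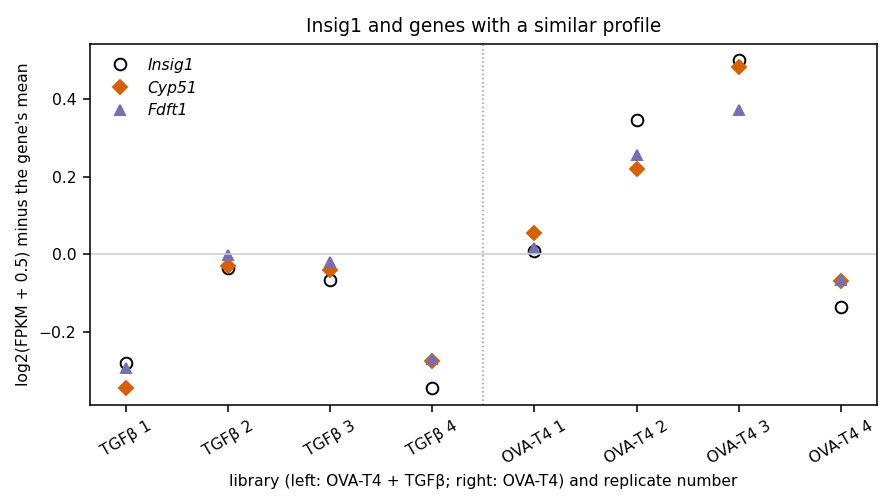
Log2(FPKM + 0.5) minus each gene's mean over the 8 libraries for Insig1 (open circles), Cyp51 and Fdft1, with the 4 OVA-T4 + TGFβ libraries left of the dotted line and the 4 OVA-T4 libraries right of it. In all of them OVA-T4 replicate 3 is the highest library, and OVA-T4 + TGFβ replicates 1 and 4 are the lowest.

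Genes that SREBP2 turns on were often lower with TGFβ. Of 23 tested genes of cholesterol synthesis and uptake, 10 were lower and 1 was higher, with a median log2 fold change of -0.24. All genes tested had 20.2% lower and a median of 0.077. Lss, which makes lanosterol, was at 12.5 ± 1.37 FPKM in OVA-T4 + TGFβ and 24.1 ± 5.19 FPKM in OVA-T4 (SD, n = 4 each), a log2 fold change of -0.91. Idi1 and Hmgcs1, enzymes of the mevalonate pathway, had log2 fold changes of -0.59 and -0.53. Tm7sf2, a sterol reductase, was higher at 0.80. Without OVA-T4 + TGFβ replicate 1 the number of lower genes was 6, and with the block it was 13, where 25.4% of all genes tested were lower.

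Of 14 tested genes of fatty acid synthesis, the main targets of SREBP1, 6 were lower, 2 were higher and 6 did not pass, with a median of -0.28. Fasn, the fatty acid synthase, had a log2 fold change of -0.73, Mid1ip1, an activator of acetyl-CoA carboxylase, of -0.67 and Elovl6, a fatty acid elongase, of -0.63. Acss2, which makes acetyl-CoA from acetate, was higher at 1.00, and so was Lpin1, a phosphatidate phosphatase, at 0.48. Genes that move, cut or degrade the SREBP and Insig proteins went both ways, with 7 of 19 higher and 5 lower, near the 30.7% and 20.2% of all genes tested. Mbtps1, the protease that makes the first cut in SREBPs, had the highest fold change at 0.78, ahead of Sec24d, a coat protein of vesicles that leave the endoplasmic reticulum (0.33), and Rnf139, a ubiquitin ligase (0.28). Erlin1 (-0.35) and the ATPase gene Vcp (-0.29) were among the lower genes. After median of ratios scaling 2 of the 19 were higher and 8 lower, and after quantile normalization 4 were higher and 9 lower. Without OVA-T4 + TGFβ replicate 1 or replicate 2, 4 were higher.

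Genes listed as LXR targets outside the members were higher or did not pass the test. Whether LXR controls each of them in these cells was not tested. Of 9 tested, 6 were higher and none was lower, with a median of 0.30, beside 30.7% higher among all genes tested. With no filter, where 27.1% of 23842 genes changed, 8 were higher and 1 was lower. Pltp, the phospholipid transfer protein gene, was at 8.68 ± 0.363 FPKM in OVA-T4 + TGFβ and 2.95 ± 0.295 FPKM in OVA-T4 (SD, n = 4 each, log2 fold change 1.41). Abca7, a lipid transporter that is also counted with the ABCA and ABCG transporters, had a log2 fold change of 1.25. Smpdl3a, a phosphodiesterase, had 0.98. Apoe, which is on the macrophage list too, did not pass (0.30, adjusted p = 0.389 from limma). The macrophage marker sums given above were also higher with TGFβ in all 4 numbered pairs, with groups that overlapped, and their part in these values was not tested.

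Of 17 tested partners, coactivators and corepressors of LXR, 11 were higher, none was lower and 6 did not pass, beside 30.7% higher among all genes tested. Their median was 0.29, and 1 was lower after median of ratios scaling or quantile normalization. Rxra, the retinoid X receptor that pairs with LXR, had a log2 fold change of 0.86, Tbl1xr1, a subunit of the corepressor complex, of 0.52 and Crebbp, an acetyltransferase, of 0.48. Of 10 genes that make or modify oxysterols, 4 were tested and none was higher (1 with the block), and 2 were lower, beside 20.2% lower among all genes tested. Sult2b1, a sterol sulfotransferase, was lower at -0.47.

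Genes of cholesterol uptake, storage and movement had 8 of 19 higher and 2 lower, with a median of 0.18. The 52.6% called are close to the 51.0% of all genes tested. With the block 10 were higher and 5 lower, where 60.8% of all genes changed. Gramd1a, a sterol carrier at membrane contacts, had a log2 fold change of 1.26 and Npc1, which exports cholesterol from lysosomes, of 1.01. Lrp8 (-0.66) and Scarb1 (-0.24), both lipoprotein receptors, were lower. Of the other ABCA and ABCG transporters 5 were tested and 4 were higher, beside 30.7% of all genes tested, among them Abca7, Abca2 (0.77) and Abcg3 (0.71).

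**Figure D5:**
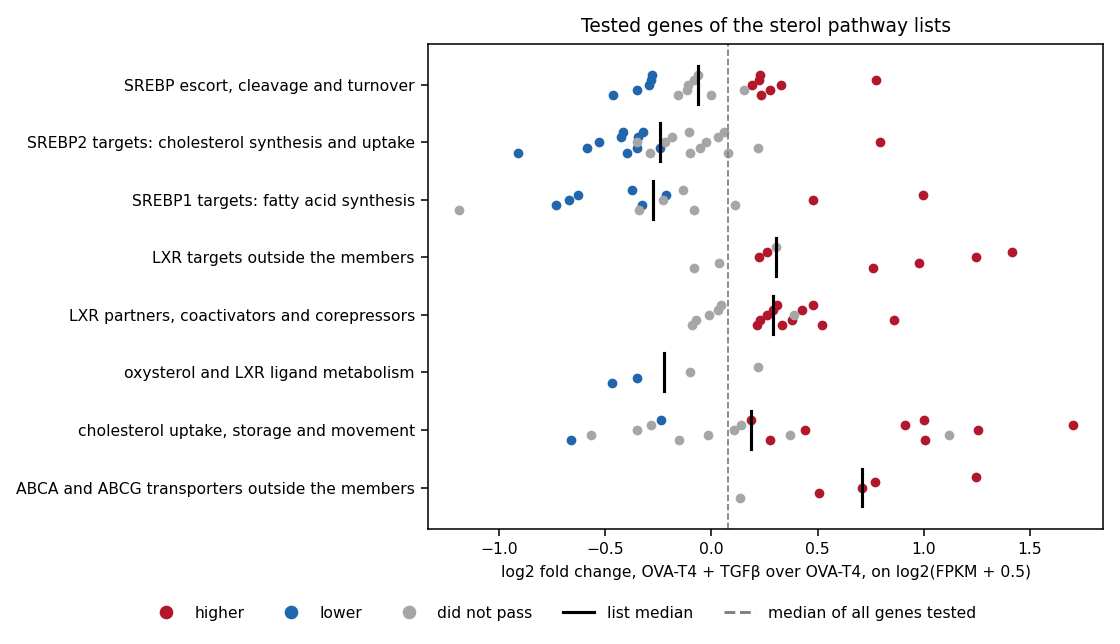
Log2 fold change of OVA-T4 + TGFβ over OVA-T4 for the tested genes of 8 sterol pathway lists, a point per gene, red for higher, blue for lower and grey for genes that did not pass, with the list median (black bar) and the median of all genes tested (dashed line, 0.077). The medians of the SREBP2 and SREBP1 targets lie at -0.24 and -0.28, and those of the LXR targets and partners at 0.30 and 0.29.

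Per length, the members fell into abundant and scarce genes. In OVA-T4 + TGFβ the mean level ran from Scap (118 FPKM), Srebf1 (115 FPKM) and Nr1h2 (112 FPKM), whose libraries overlapped, through Srebf2 (70.5 FPKM), Insig1 (42.0 FPKM), Insig2 (22.7 FPKM), Abcg1 (9.33 FPKM) and Mylip (2.57 FPKM) to Abca1 (0.631 FPKM). In OVA-T4 Scap (107 FPKM) was again first and stood apart from Nr1h2 (94.4 FPKM), while Nr1h2, Srebf1 (90.2 FPKM), Srebf2 (73.0 FPKM) and Insig1 (54.7 FPKM) overlapped with their neighbours, as did Abcg1 (6.39 FPKM) and Mylip (2.48 FPKM). For 5 members the length behind the FPKM was the mean of the annotated transcripts, such as 1033 bases for Scap and 1466 for Srebf1, where the longest coding transcripts have 4227 and 4299 bases. For Srebf2, Abcg1, Nr1h2 and Mylip it is the smallest length that gives whole reads, and the true one may be a multiple of it. Rescaled from these lengths to the longest coding transcript, the order in OVA-T4 + TGFβ began with Srebf2 (69.2), Nr1h2 (68.2), Srebf1 (39.4) and Scap (29.0). The order among the abundant members therefore depends on the length used, while Insig2, Abcg1, Mylip and Abca1 came last on both.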

How the data were processed

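RNA was measured in 8 libraries from poly(A)-selected RNA. The authors deposited FPKM values per gene for the whole series, scaled by them to library total and gene length. CASAVA, HISAT2, HTSeq and the build mm10 are named in the submitters' processing notes, and the study's methods name DESeq2 for its own tests. A length per gene and a total per library were solved so that values became whole reads (tolerance 0.005 reads), which held for 100.0% of the 23842 genes above 0. In 70.3% of the 15418 genes above 0 in all libraries, that length was the mean length of the gene's GENCODE M21 transcripts. Strand use in counting is not given in the sources used here.

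The main test was limma 3.58.1 (R 4.3.3) with the variance trend, two-sided, on log2(FPKM + 0.5), for genes averaging 0.5 FPKM or more, and higher or lower means an adjusted p under 0.05. It was tested on simulated data first. Ratios of members were compared by exact permutation. The study's labels carry replicate numbers 1 to 4 in both groups. Same-numbered libraries had correlated deviations from the mean of their group (r over all genes 0.179, 0.205, 0.419 and 0.505). Different numbers gave -0.489 to 0.254, and 3 of those values (0.239, 0.246 and 0.254) exceeded the lower same-number ones. Every same-number r was above 0.1, but so were some between different numbers, so this does not settle the pairing. The numbers were taken to pair the libraries, from the data and not from the labels. Calls made only with the block rest on this choice. Nothing in the labels says whether replicates came from separate mice, so p-values measure the spread between these libraries. Alternatives were other pseudocounts, filters and scalings, the block, voom on the solved reads, protein-coding genes alone and leaving out each library. Members and gene lists were chosen with earlier results of these data known. Named are the members, the 3 highest and 3 lowest genes of each list that passed, the 3 genes most like the members with the largest and smallest fold change, and marker genes. Some genes that this rule names are not reported here. Hm13 was on a list and its name matched no row. Sequences are from RefSeq (GRCm38.p6), with 3′ UTR stretches from GENCODE M21 transcripts. Further steps used Python 3.11.15, numpy 2.4.6, pandas 2.3.3 and SciPy 1.17.1.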

Additional observations from a re-analysis of the deposited data

How the results depend on the processing

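Insig2 kept its call in all 19 alternatives. Srebf1 passed the test with TPM scaling (0.41), quantile normalization (0.43), the replicate block (0.37) and voom (0.38), and without single libraries it ranged over 0.25 to 0.47. Insig1 passed with median of ratios scaling (-0.46), quantile normalization (-0.37), the replicate block (-0.36), voom (-0.36) and protein-coding genes alone (-0.36), with a range of -0.47 to -0.25 without single libraries. Scap (0.045) and Nr1h2 (0.15) did not pass after median of ratios scaling, and without single libraries they ranged over 0.13 to 0.17 and 0.19 to 0.29. Abcg1 passed with the replicate block (0.68) and without OVA-T4 replicate 3, in a range of 0.39 to 1.02 over single libraries left out. Mylip turned to -0.038 with median of ratios scaling and -0.23 with quantile normalization, and to between -0.034 and 0.14 without single libraries. The log2 difference of Abca1 was 0.90 with a pseudocount of 0.1 FPKM, which turned the Abca1 to Abcg1 ratio to 0.16. In the fit of Abca1 with no filter, single libraries left out, a check chosen after seeing the data, gave 0.34 to 0.67. The ratios of Srebf1 to Srebf2 (0.42) and Insig1 to Insig2 (-0.86) could not pass with the replicate block, since 4 pairs allow no exact p below 0.125. Without single libraries they were 0.35 to 0.49 and -0.97 to -0.74, with adjusted p = 0.0857 by the exact permutation test except without OVA-T4 replicates 2 or 3.

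The share of higher genes among all changed genes was 60.3% in the deposited FPKM, 47.4% with median of ratios scaling, 46.8% with quantile normalization and 65.5% with TPM scaling. The replicate block moved no other member's call.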
